A study of Spinacia oleracea with 12 samples.

Results

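The interaction of tissue and nitrogen (N) compares the response of a gene to N supply in the root of spinach with the response of the same gene in the leaf. It was computed for genes expressed in both organs, which were chosen by level alone: a mean of at least 1 FPKM (fragments scaled by gene length and by the library's total) in the 6 root libraries and of at least 1 FPKM in the 6 leaf libraries. This rule kept 15344 of the 25495 genes in the table, or 60.2%. A further 2537 genes reached the limit in root only, 1178 in leaf only and 6436 in neither organ, and these have no interaction value here. The gene nearest to the limit on its inner side was Spo00946, at 3.4122 FPKM in root and 1.0001 FPKM in leaf, and the nearest one on its outer side was Spo23101, at 2.3093 FPKM in root and 0.99987 FPKM in leaf. Some genes that passed were still low in 1 of the 4 groups: 578 of the 15344 averaged under 1 FPKM in at least 1 group.

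Plants of the spinach cultivar Banjo were 6 weeks old and came from a growth chamber. They received N as Ca(NO3)2, kept at 200 ppm (high N) or at 50 ppm (low N), with CaCl2 added so that calcium was equal and with all other nutrients from the same N-free Hoagland solution. The 4 groups were root at high N (HNR), root at low N (LNR), leaf at high N (HNL) and leaf at low N (LNL), with 3 libraries each from 3 plants per treatment. Each library was RNA of a whole organ of 1 cultivar, so fewer cells of a type and less RNA per cell cannot be told apart in any value below. Several tissue and treatment entries in the sample records contradict the library names, and the groups follow the names. The 6 markers of green tissue, such as chlorophyll a-b binding protein CP24 (Spo25138), were each higher in every leaf library than in every root library, with sums of 5.11 to 11.9 FPKM in HNR, 3.58 to 5.82 FPKM in LNR, 14600 to 15620 FPKM in HNL and 17391 to 21827 FPKM in LNL. Of 5 root markers, 3 were higher in every root library. The other 2 were the ammonium transporter Spo24677, whose root and leaf values overlapped, and the phosphate transporter Spo11354, which was at 0.639 FPKM or less in every library.

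Nitrate enters the root through transporters of the NRT and NPF families and is reduced to ammonium, which glutamine synthetase and glutamate synthase build into amino acids. Root and leaf share these tasks, and amino acids such as asparagine and glutamine carry N between them. When N is short, plants are known to shift sulfur assimilation, carbon storage and phenylpropanoid metabolism as well. Phenylpropanoid metabolism makes lignin and flavonoids from phenylalanine.

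The libraries held 15627994 to 18608172 fragments on genes, and a gene of 1 kb with 3 fragments would have 0.161 to 0.192 FPKM. Replicates of a group differed by a median SD over genes of 0.169 (HNR), 0.228 (LNR), 0.239 (HNL) and 0.274 (LNL) on the log2(FPKM + 1) scale. Of the 12 libraries, 3 had a higher mean correlation with the other N treatment of their tissue than with their own group. HNR3 had 0.964 with LNR and 0.956 with the other HNR libraries, LNR1 had 0.956 with HNR and 0.952 with its own group, and LNL3 had 0.939 with HNL and 0.932 with its own group. LNL1 had the lowest correlation with its own group, at 0.921. All 12 libraries were kept, and the main counts are given without each of them.

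The interaction is the high N minus low N difference in root minus the same difference in leaf, on the log2(FPKM + 1) scale. A positive value means that high N raised the gene more, or lowered it less, in root than in leaf. Adding 1 to each FPKM shrinks the differences of genes with low values. In one limma fit of the 4 groups, 790 of the 15344 genes had an unadjusted p below 0.05 for the interaction, the level at which the study called genes. These 790 genes, the called genes below, are 5.15% of those tested, and 767 would be expected if no gene differed. After Benjamini-Hochberg adjustment over all 15344 genes, limma left 0 genes below 0.05, with a smallest adjusted p of 0.0548, and voom on fragments worked back from the FPKM values gave 799 genes unadjusted and 0 adjusted. The count of called genes is close to its background, and the genes below are described against it. The interaction was positive in 414 called genes (2.7%) and negative in 376 (2.45%). Without each library in turn the count ran between 583 (without LNR3) and 1211 (without LNL3), with 755 without HNR3, and 0 to 8 genes had an adjusted p below 0.05, the 8 without LNL1. The 25 other settings are set side by side in the bar plot of called shares.

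**Figure D1:**
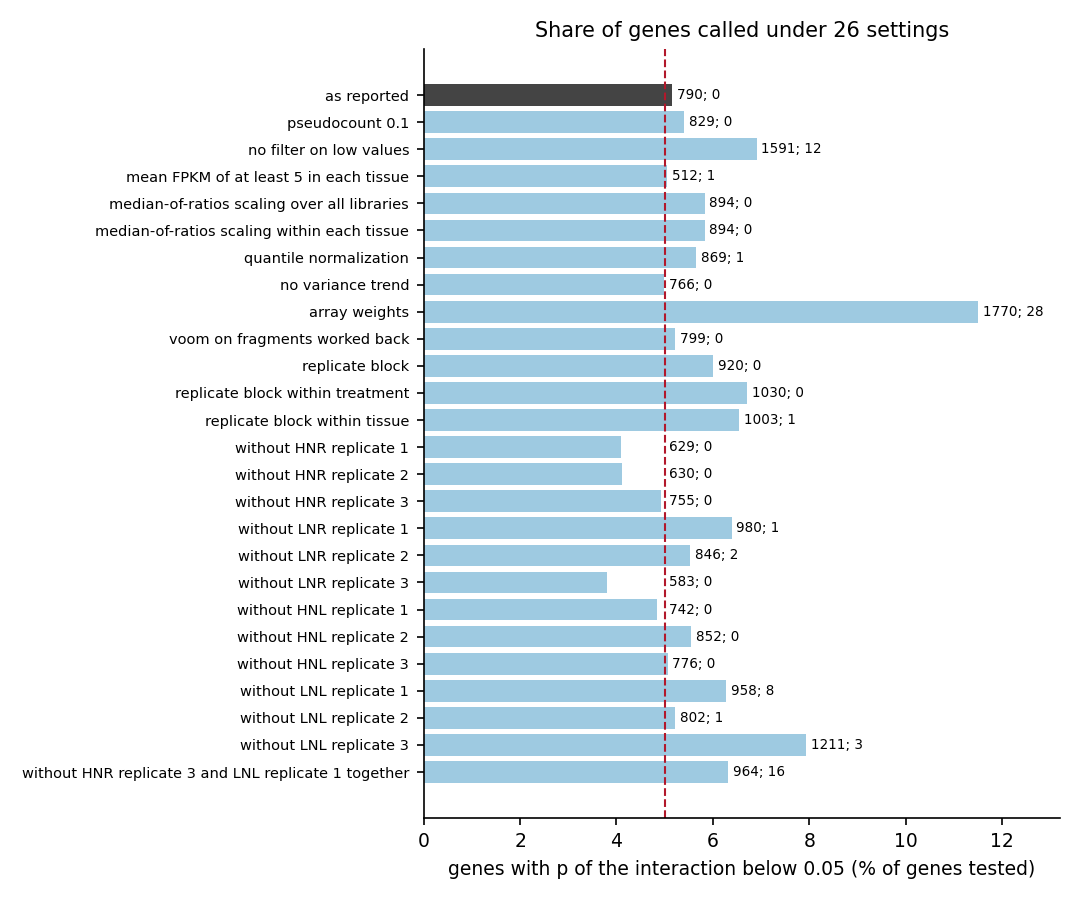
Share of genes tested with an interaction p below 0.05 in limma (horizontal axis, %), for the reported fit (dark bar) and for 25 other settings (light bars), with the dashed line at 5%. The numbers at each bar are the genes with an unadjusted p and, after the semicolon, with an adjusted p below 0.05. The reported fit gave 5.15% and array weights gave 11.5%.

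The median standard error of the interaction was 0.31, and for 8844 of the 15344 genes (57.6%) the 95% interval lay within 1 of 0. An interaction of at least 1 in either direction was seen in 653 genes, of which 346 were called. Called genes with a positive interaction had a median level of 15 FPKM in root and 7.65 FPKM in leaf, those with a negative one 21.6 FPKM in root and 18 FPKM in leaf, and all genes tested 14.3 FPKM in root and 10.3 FPKM in leaf. Of the 790 called genes, 61 (7.72%) averaged under 1 FPKM in at least 1 group, against 578 of all 15344 (3.77%).

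The N responses of the organs themselves ran partly together. Across the 15344 genes the root response and the leaf response had a Pearson r of 0.431, a description over genes, which are not independent replicates. The root response had p below 0.05 in limma for 1289 genes (8.4%) and the leaf response for 2233 genes (14.6%). Opposite signs in root and leaf were seen for 639 of the 790 called genes (80.9%), against 5463 of all 15344 (35.6%), and choosing genes by their interaction favours opposite signs. Among the called genes, 191 had p below 0.05 in root only, 424 in leaf only, 44 in both organs with opposite signs, 7 in both with the same sign and 124 in neither. A stricter description asks that all 9 high-minus-low differences between root libraries lie above, or all below, the 9 between leaf libraries. This held for 352 genes (2.29%), 183 with root above leaf (1.19%) and 169 with root below leaf (1.1%), and 300 of them were called. The N treatments did not overlap in root nor in leaf, and in opposite directions, for 92 genes (0.6%), 87 of them called.

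**Figure D2:**
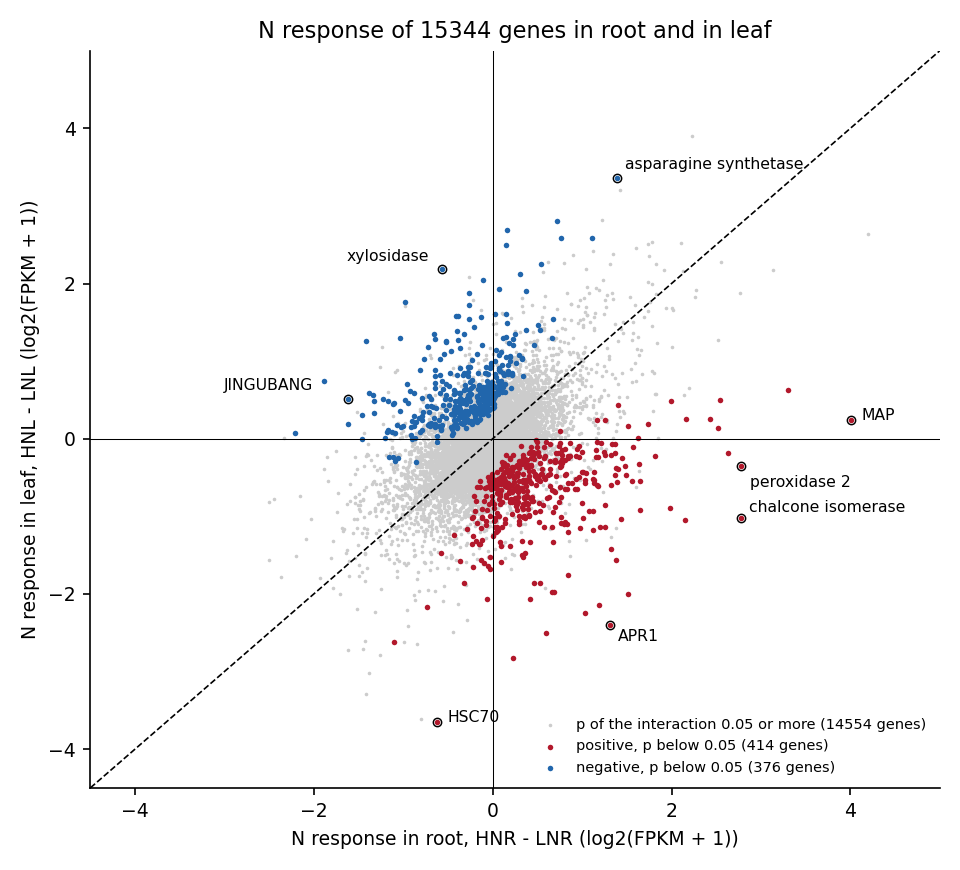
N response in root (HNR minus LNR, horizontal axis) and in leaf (HNL minus LNL, vertical axis) of 15344 genes on the log2(FPKM + 1) scale, with called genes in red (414 positive interactions) and blue (376 negative ones), others in grey, and the dashed line where both responses are equal. Called genes lie off the line on both sides, with chalcone isomerase at 2.77 in root and -1.02 in leaf.

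The gene groups that follow were put together by protein name from the study's own tables of N-responsive genes. The study chose those genes on these same libraries, so a high share of called genes in a list is not independent evidence of a difference: 388 of the 1511 genes with an interaction value that the study's tables list were called (25.7%), against 402 of the 13833 other genes (2.91%). Each list is given by its counts and by its median interaction, beside a median of -0.01 over all genes. Over all genes 47.9% had a positive interaction, 43.3% a positive root response and 45.5% a positive leaf response.

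The largest interaction belonged to a gene of flavonoid synthesis. Chalcone isomerase (Spo18570), which closes the ring of chalcones to give flavanones, had 546, 781 and 611 FPKM in HNR, 96.1, 130 and 63.6 FPKM in LNR, 5.23, 6.24 and 7.89 FPKM in HNL and 9.32, 12.5 and 23.1 FPKM in LNL. Every HNR library was above every LNR library, while every HNL library was below every LNL library. The root response was 2.77 ± 0.32 and the leaf response -1.02 ± 0.32 (SE), and their difference was 3.80 ± 0.45 with an adjusted p of 0.0548 in limma, the smallest of all genes. A related gene, probable chalcone isomerase 3 (Spo26569), had 274, 311 and 400 FPKM in HNR and 63.2, 116 and 50.6 FPKM in LNR. In leaf it had 2.69, 5.42 and 4.63 FPKM in HNL and 6.46, 10 and 13.3 FPKM in LNL. Its groups also did not overlap in either organ, in opposite directions, with an interaction of 3.20 ± 0.47 (adjusted p = 0.0966 in limma).

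Other genes of phenylpropanoid metabolism gave smaller values of the same sign. Phenylalanine ammonia-lyase (Spo16743), the entry to phenylpropanoid metabolism, had 792, 645 and 1030 FPKM in HNR, 988, 662 and 603 FPKM in LNR, 28.3, 31.7 and 35.8 FPKM in HNL and 104, 60.2 and 46.7 FPKM in LNL. Its root groups overlapped and it fell under high N in leaf, with an interaction of 1.18 ± 0.41. 4-Coumarate-CoA ligase 2 (Spo10338), which activates coumarate for both flavonoids and lignin, had 364, 373 and 506 FPKM in HNR, 201, 183 and 94 FPKM in LNR, 6.34, 5.31 and 4.04 FPKM in HNL and 16.3, 8.84 and 10.8 FPKM in LNL. It rose under high N in root and fell under high N in leaf, with an interaction of 2.46 ± 0.42 (adjusted p = 0.119 in limma). The cinnamoyl-CoA reductase-like gene SNL6 (Spo23280), of a family that makes lignin precursors, had 28.3, 29.8 and 40.1 FPKM in HNR and 5.69, 4.31 and 4.23 FPKM in LNR, against 20, 15.9 and 25.1 FPKM in HNL and 10.6, 13.6 and 18.5 FPKM in LNL. It rose under high N in root (2.55), its leaf groups overlapped (0.50) and its interaction was 2.05 ± 0.32 (adjusted p = 0.0966 in limma).

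Of the 14 flavonoid and phenylpropanoid genes that passed the filter, 8 were called and all 8 had a positive interaction, and the list's median was 1.28. The other 3 called members were a pair of flavonoid 3',5'-methyltransferases, Spo19595 (1.78 ± 0.51) and Spo08889 (1.67 ± 0.72), and an anthocyanidin glucosyltransferase, Spo13022 (1.39 ± 0.60). Spo08889 lost its call without HNR2, HNR3, LNR3, HNL2, HNL3 or LNL2. Spo13022 lost its call without HNR2, HNR3, LNR1, LNR2, HNL1, HNL2, HNL3 or LNL2. The 6 members that did not pass the test, such as dihydroflavonol 4-reductase (Spo00757), had interactions between 0.02 and 0.87. Of the 23 genes in this list, 9 did not pass the filter. Without each library in turn, 6 to 8 members were called positive and 0 or 1 negative, and the median lay between 1.04 and 1.62.

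**Figure D3:**
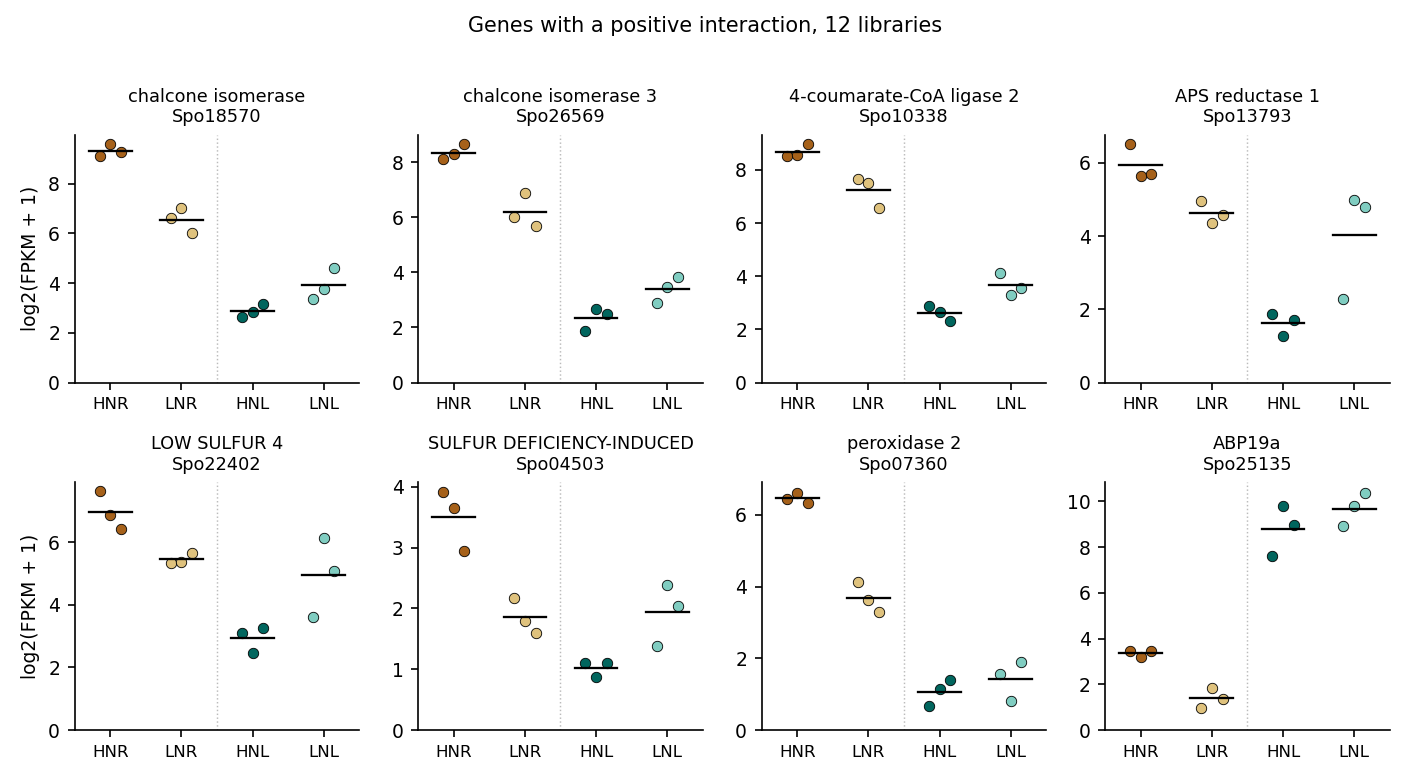
Level of 8 genes with a positive interaction in the 12 libraries (vertical axes, log2(FPKM + 1), each with its own range from 0), with root at high and low N (HNR, LNR) and leaf at high and low N (HNL, LNL). Points are libraries and lines are group means. Chalcone isomerase, for example, was higher in HNR than in LNR and lower in HNL than in LNL in every library.

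Adenylylsulfate reductase 1 (APR1, Spo13793), which reduces activated sulfate to sulfite, had 89.7, 49.1 and 50.4 FPKM in HNR, 30.2, 19.4 and 23 FPKM in LNR, 2.7, 1.43 and 2.27 FPKM in HNL and 3.85, 30.6 and 26.9 FPKM in LNL. Every HNR library was above LNR and every HNL library was below LNL, although LNL1 was close to the HNL libraries. The interaction was 3.71 ± 0.81 (adjusted p = 0.326 in limma) and lay between 3.23 and 4.58 without each library in turn. RESPONSE TO LOW SULFUR 4 (Spo22402), one of a family of small proteins named in Arabidopsis for its rise under low sulfur, had 199, 115 and 83.9 FPKM in HNR, 39.7, 40.2 and 49.4 FPKM in LNR, 7.57, 4.48 and 8.68 FPKM in HNL and 11.3, 68.6 and 32.7 FPKM in LNL. Its pattern was the same, with an interaction of 3.51 ± 0.73. SULFUR DEFICIENCY-INDUCED 1 (Spo04503) had 14.1, 11.6 and 6.7 FPKM in HNR, 3.52, 2.45 and 2.04 FPKM in LNR, 1.14, 0.832 and 1.14 FPKM in HNL and 1.61, 4.25 and 3.1 FPKM in LNL. It too rose under high N in root and fell under high N in leaf (interaction 2.56 ± 0.42, adjusted p = 0.101 in limma).

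Of the 6 sulfur genes that passed the filter, these 3 were called, all positive, and the median was 1.98. ATP sulfurylase 1 (Spo11735), which activates sulfate in the step before APR1, had 257, 208 and 347 FPKM in HNR and 870, 468 and 804 FPKM in LNR, against 66.3, 48.9 and 35 FPKM in HNL and 91.7, 94.4 and 95.1 FPKM in LNL. It fell under high N in both organs, by 1.38 in root and by 0.94 in leaf, and its interaction of -0.44 ± 0.40 did not pass the test (95% interval -1.32 to 0.44). RESPONSE TO LOW SULFUR 1 (Spo22403) had an interaction of 1.39 ± 0.72, which did not pass the test with all libraries and, of the fits without 1 library, passed in that without LNL1. The probable sulfate transporter Spo24614 had 0.33 ± 0.23.

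Transporters and receptors of N compounds were mixed. Of 11 genes in the list of nitrate transporters and nitrate signalling, 3 were called, 2 positive and 1 negative, and the median was 0.04. Among these, the gene Spo07601 (NRT1/PTR FAMILY 5.8) had 101, 97.5 and 47 FPKM in HNR, 31.9, 22.3 and 30.3 FPKM in LNR, 22.6, 6.88 and 14.6 FPKM in HNL and 17, 13.1 and 18.2 FPKM in LNL. It rose under high N in root, its leaf groups overlapped, and its interaction was 1.69 ± 0.54. The gene Spo25782 (NRT1/PTR FAMILY 4.6) did not separate in root, with 19.7, 22.3 and 14.6 FPKM in HNR and a range within these values in LNR, but rose under high N in leaf, with HNL (19.3, 16.1 and 22 FPKM) above LNL (13.5, 7.72 and 9.89 FPKM). Its interaction was -0.92 ± 0.30. The nitrate regulatory protein gene Spo23720 fell under high N in leaf only (interaction 0.66 ± 0.22). The dual-affinity nitrate transporter gene Spo26413 (NRT1/PTR FAMILY 6.3) had 123, 67.3 and 23.1 FPKM in HNR and 27.7, 113 and 15.8 FPKM in LNR, so that its groups overlapped (interaction 1.21 ± 0.94, 95% interval -0.85 to 3.28), and of the fits without 1 library it passed the test in that without LNR2. The high-affinity NRT2 genes of the study's tables were under the limit in leaf and have no interaction value.

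Among 4 ammonium transporters, AMT1 member 3 (Spo21031) was called. It had 2.82, 3.47 and 5.1 FPKM in HNR, 1.94, 1.39 and 1.59 FPKM in LNR, 3.61, 2.01 and 2.95 FPKM in HNL and 5.77, 5.1 and 15.1 FPKM in LNL, so it rose under high N in root and fell in leaf (interaction 2.04 ± 0.48). The AMT1 member 2 gene Spo24676 had 89.6, 53.7 and 216 FPKM in HNR and 299, 300 and 230 FPKM in LNR, against 0.956, 2.25 and 0.850 FPKM in HNL and 9.05, 6.35 and 2.48 FPKM in LNL. It fell under high N in both organs, by 1.43 in root and by 1.48 in leaf, with an interaction of 0.06 ± 0.68. That value turned negative in 6 of the 12 fits without 1 library, at its lowest -0.48 without HNR3, and was -0.10 after quantile normalization. A second AMT1 member 2 gene, Spo24677, had an interaction of -1.67 ± 1.08. It did not pass the test with all libraries and passed it without HNR3.

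The 3 glutamate receptors that passed the filter were all called, 2 positive and 1 negative. These plant channels are relatives of animal glutamate receptors. Glutamate receptor 2.7 (Spo01837) had 3.5, 1.38 and 1.52 FPKM in HNR, 0.843, 0.309 and 0.486 FPKM in LNR, 2.26, 1.53 and 2.64 FPKM in HNL and 22.6, 2.69 and 2.8 FPKM in LNL. The groups did not overlap in either organ, but neither response passed the test within its organ. The interaction of 2.12 ± 0.83 was 1.24 without LNL1. The call was lost without LNR2 and without HNL2. Without HNR1 the gene fell under the root filter and had no value. Glutamate receptor 3.4 (Spo03836) had 0.88 ± 0.34, a call lost without HNR3 and without LNR1, and glutamate receptor 3.6 (Spo00338) had -0.78 ± 0.28.

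In the list of N assimilation and amino acid metabolism, of 17 genes that passed the filter, 4 were called negative and 1 positive, and the median was -0.22. Among the 4 negative ones, phosphatidylserine decarboxylase (Spo25907) acts on a phospholipid and is in the list only by the words of its name. Asparagine synthetase (Spo08792), which makes the amide that carries N between organs, had 8.6, 24.3 and 8.32 FPKM in HNR, 6.03, 2.64 and 3.9 FPKM in LNR, 259, 333 and 465 FPKM in HNL and 89.1, 27.4 and 13.6 FPKM in LNL. It was higher under high N in every library of both organs, by 1.39 in root and by 3.36 in leaf. Its interaction of -1.97 ± 0.83 (adjusted p = 0.944 in limma) lay between -2.69 and -1.37 without each library in turn, and the call was lost without any 1 of HNR1, HNR3, LNR1, LNR3, HNL2, HNL3, LNL2 and LNL3. The glutamine amidotransferase gene GAT1 (Spo00216) had 134, 251 and 34.5 FPKM in HNR, 6.34, 5.62 and 3.05 FPKM in LNR, 14.8, 8.73 and 3.82 FPKM in HNL and 1.12, 0.178 and 0.230 FPKM in LNL. It rose under high N in both organs, by 4.20 in root and by 2.64 in leaf, and the root response was the largest of all named genes. The difference of 1.56 ± 0.89 did not pass the test with all libraries and, of the fits without 1 library, passed in that without HNR3. GAT1 averaged 0.508 FPKM in LNL, a level at which adding 1 to each FPKM shrinks the leaf response. The size of its interaction therefore depends on the added 1.

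The acetyltransferase NAGS2 of arginine synthesis (Spo22718, -1.06 ± 0.47), the aminotransferase TAT2 (Spo23245, -0.87 ± 0.38), phosphatidylserine decarboxylase (Spo25907, -0.87 ± 0.38) and NADH glutamate synthase (Spo02549, 1.05 ± 0.47) each had p between 0.0437 and 0.0459 in limma, and each lost its call in several fits without 1 library. For NAGS2 these were the fits without HNR1, HNR3, LNR1, LNR2, HNL1, HNL3, LNL2 or LNL3, and for TAT2 those without HNR2, HNR3, LNR1, LNR2, HNL2, HNL3, LNL2 or LNL3. For the decarboxylase they were the fits without HNR1, HNR2, LNR2, LNR3, HNL2, HNL3, LNL2 or LNL3, and for glutamate synthase those without HNR1, HNR2, LNR3, HNL2, HNL3, LNL2 or LNL3. The branched-chain aminotransferase Spo13997 rose in root (1.46) and in leaf (1.37), with an interaction of 0.09 ± 0.71. Of 7 amino acid transporters, 2 were called, both negative. The vacuolar transporter YPQ3 (Spo21518) had 0.533, 2.94 and 0.887 FPKM in HNR and 0.245, 1.14 and 0.404 FPKM in LNR, against 59.1, 32.5 and 54.3 FPKM in HNL and 11.4, 9.16 and 7.23 FPKM in LNL (interaction -1.71 ± 0.51). Its call was lost with a pseudocount of 0.1 and with voom. The permease BAT1 homolog (Spo26784) had -0.80 ± 0.36, a call lost with that pseudocount, with voom and without HNR1, HNR2, LNR2, LNR3, HNL1, HNL2, HNL3, LNL2 or LNL3.

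The study designed RT-qPCR primers for 5 of the genes with an interaction value. Those of 3 genes that rose under high N in root are shown, since they mark the transcripts that the identifiers stand for. They are written 5′ to 3′ in lower case, forward primer and then reverse primer, as the study lists them.
Spo08792 asparagine synthetase, forward: ggatcacaactccattccttct
Spo08792 asparagine synthetase, reverse: ggtggacagtacccaaatagtc
Spo00216 GAT1, forward: cgtggatctcaggtgcttaat
Spo00216 GAT1, reverse: ccactctttggtcttcaggtatc
Spo21019 NAC29, forward: ggaggctaagcatcaacctatc
Spo21019 NAC29, reverse: tctgttctctcctctgctctta

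The transcription factor NAC29 (Spo21019), whose Arabidopsis namesake is known for its part in leaf senescence, had 12.2 to 19.4 FPKM in HNR, 0, 3.79 and 0.149 FPKM in LNR, 5.1, 0.932 and 1.87 FPKM in HNL and 1.33, 0.881 and 1.08 FPKM in LNL. Under high N it rose in root (3.30) and its leaf groups overlapped, and the interaction was 2.67 ± 0.78. A second NAC29 gene (Spo21018) averaged 22.1 ± 3.02 FPKM in HNR (SD, n = 3) and had 5.92, 5.3 and 5.31 FPKM in LNR, with an interaction of 1.24 ± 0.60 that did not pass the test with all libraries and, of the fits without 1 library, passed in those without HNL1 and without HNL3. Of the 16 transcription factors in this list, 5 were called and all 5 were positive. Besides NAC29 these were WRKY70 (Spo22621, 1.62 ± 0.41), named after an Arabidopsis regulator of defence, the bHLH factors UNE10 (Spo08635, 1.57 ± 0.31) and bHLH19 (Spo08386, 0.87 ± 0.27), and RADIALIS (Spo28204, 1.51 ± 0.68), which fell under high N in both organs and lost its call without HNR1, HNR3, LNR1, HNL1, HNL2, HNL3, LNL2 or LNL3. The list's median was 0.34. Of 11 ethylene-responsive and DREB factors, 2 were called, both negative: ERF061 (Spo21370, -1.33 ± 0.48) and WRI1 (Spo17207, -1.23 ± 0.48), whose call was lost without HNR2, LNR2, HNL3, LNL1 or LNL2.

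Secreted peroxidases, which use hydrogen peroxide in wall and lignin chemistry, held 2 of the smallest adjusted p values. Peroxidase 2 (Spo07360) had 85.8, 96.1 and 78.7 FPKM in HNR, 16.3, 11.3 and 8.73 FPKM in LNR, 0.604, 1.21 and 1.61 FPKM in HNL and 1.94, 0.739 and 2.73 FPKM in LNL. Peroxidase 5 (Spo07361) had 67.8, 62.5 and 78.9 FPKM in HNR, 6.08 to 16.3 FPKM in LNR, 1.2, 0.580 and 1.55 FPKM in HNL and 1.94, 0.853 and 1.38 FPKM in LNL. Both rose under high N in root and overlapped in leaf, with interactions of 3.13 ± 0.42 (adjusted p = 0.0845 in limma) and 2.81 ± 0.43 (adjusted p = 0.0966). These 2 genes have nearly equal values in several libraries, and whether reads are shared between near-identical copies was not tested. Of the 11 class III peroxidases, 4 were called positive and 1 negative, with a median of 0.79. The others called positive were cationic peroxidase 1 (Spo21312, 2.03 ± 0.82), a call lost without HNR1, HNR2, LNR3, HNL1 or LNL1, and peroxidase 51 (Spo13083, 0.79 ± 0.33), lost without HNR2, HNR3, LNR1, LNR2, HNL2, HNL3, LNL2 or LNL3. The negative one, peroxidase 4 (Spo21846, -1.90 ± 0.70), had 0.305, 0.0862 and 0.278 FPKM in LNL. Peroxidase 4 passed the leaf filter only through HNL, and the fits without HNL1 or HNL3 gave it no value.

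The auxin-binding proteins ABP19a and ABP20 resemble germins, proteins of the cell wall, and 4 of the 27 genes in the list of auxin-binding and germin-like proteins passed the filter. ABP19a gene Spo25135 had 10.1, 8.27 and 9.95 FPKM in HNR, 0.976, 2.56 and 1.56 FPKM in LNR, 195, 894 and 504 FPKM in HNL and 481, 890 and 1314 FPKM in LNL. High N raised it in root and its leaf groups overlapped (interaction 2.88 ± 0.70). ABP19a gene Spo14427 was instead a root gene, with 967, 1056 and 1862 FPKM in HNR, 726, 354 and 419 FPKM in LNR and 5.62 FPKM or less in every leaf library (interaction 1.75 ± 0.51). These 2 were called, and all 4 members had positive interactions, with 1.58 ± 0.78 for ABP20 (Spo25895) and 1.03 ± 0.51 for another ABP19a gene (Spo24454), which did not pass the test with all libraries. ABP20 passed it without LNR1, HNL1 or LNL3, and Spo24454 without LNL3.

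Photosynthesis genes with enough signal in root were few, and 3 of 4 were called, all positive, with a median of 1.12. Protochlorophyllide reductase (Spo19511), which carries out the light-driven step of chlorophyll synthesis, had 20.2, 23 and 10.4 FPKM in HNR, 9.73, 6.31 and 7.62 FPKM in LNR, 409, 391 and 366 FPKM in HNL and 462, 555 and 684 FPKM in LNL. Its groups did not overlap in either organ and ran in opposite directions (interaction 1.56 ± 0.37). Photosystem I subunit XI (Spo25087) had 3.27, 8.19 and 10.4 FPKM in HNR and 3.78, 1.24 and 2.74 FPKM in LNR, against 4582 to 6700 FPKM over the 6 leaf libraries. Its interaction of 1.21 ± 0.50 was lost without HNR2, HNR3, LNR2, HNL1, HNL3, LNL2 or LNL3. Photosystem I subunit XI is itself 1 of the 6 leaf markers. Their sum in root was 5.11 to 11.9 FPKM in HNR and 3.58 to 5.82 FPKM in LNR. In HNR it was mostly that gene, and without it the other 5 summed to 1.48 to 2.49 FPKM. In LNR that gene was not the larger part in every library, and the other 5 summed to 2.04 to 2.79 FPKM. The groups overlapped in both sums, and the part of green tissue in these results was not tested.

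The largest heat shock interaction was that of HSC70 (Spo17157), a chaperone. It had 58.2, 54.6 and 48.3 FPKM in HNR, 173, 79.5 and 41.1 FPKM in LNR, 3.18, 1.02 and 2.32 FPKM in HNL and 160, 60.1 and 4.6 FPKM in LNL. LNL1 was highest in low N leaf and LNR1 highest in low N root. The interaction was 3.03 ± 1.35 (adjusted p = 0.944 in limma), between 1.99 and 4.41 without each library in turn, and of those fits it was called without LNR1 and without LNL3 and lost its call in the other 10. HSP90-1 (Spo04382), with 2.81 ± 1.41, did not pass the test with all libraries and passed it without LNR1 and without LNL3. Of 10 members, 2 were called, both positive, the second being HSF24 (Spo22916, 1.12 ± 0.50, lost without HNR1, HNR2, HNR3, LNR2, LNR3, HNL2, HNL3, LNL1 or LNL2), and the list's median was 0.75.

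The bidirectional sugar transporter SWEET7 (Spo11590) had 451, 438 and 423 FPKM in HNR, 308, 171 and 169 FPKM in LNR, 1.39, 2.23 and 1.75 FPKM in HNL and 2.43, 6.79 and 4.53 FPKM in LNL. High N raised it in root and lowered it in leaf (interaction 2.00 ± 0.42). SWEET2 (Spo18106) had 34.3, 37.1 and 31.8 FPKM in HNR and 46.1, 42.1 and 38.6 FPKM in LNR, against 40.1, 41.2 and 35.1 FPKM in HNL and 35.3, 17.5 and 15.5 FPKM in LNL. Every HNR library was below LNR without passing the test in root, and it rose under high N in leaf, where HNL3 lay just under LNL1 (interaction -1.12 ± 0.35). Of 10 sugar and starch genes 1 was called positive and 2 negative. The other negative one, ERD6-like 6 (Spo14449, -0.75 ± 0.33), lost its call without HNR1, HNR2, HNR3, LNR1, LNR2, HNL1, HNL2, LNL2 or LNL3. Of 8 genes of trehalose phosphate, a sugar signal, 1 was positive (Spo17896, 1.18 ± 0.40) and 2 negative (Spo09872, -1.79 ± 0.55, and Spo11422, -0.97 ± 0.28), and these 3 are all trehalose-phosphate phosphatases, while 0 of the 5 synthases was called. The 3 genes of the glyoxylate cycle and gluconeogenesis had the lowest list median, -1.46, yet none passed the test. Malate synthase (Spo16696) had 300, 531 and 307 FPKM in HNR and 174, 128 and 335 FPKM in LNR, against 214, 55.1 and 108 FPKM in HNL and 31, 20.2 and 13.3 FPKM in LNL (interaction -1.46 ± 0.70), and it passed without HNR2, LNR2, HNL2 or LNL1.

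**Figure D4:**
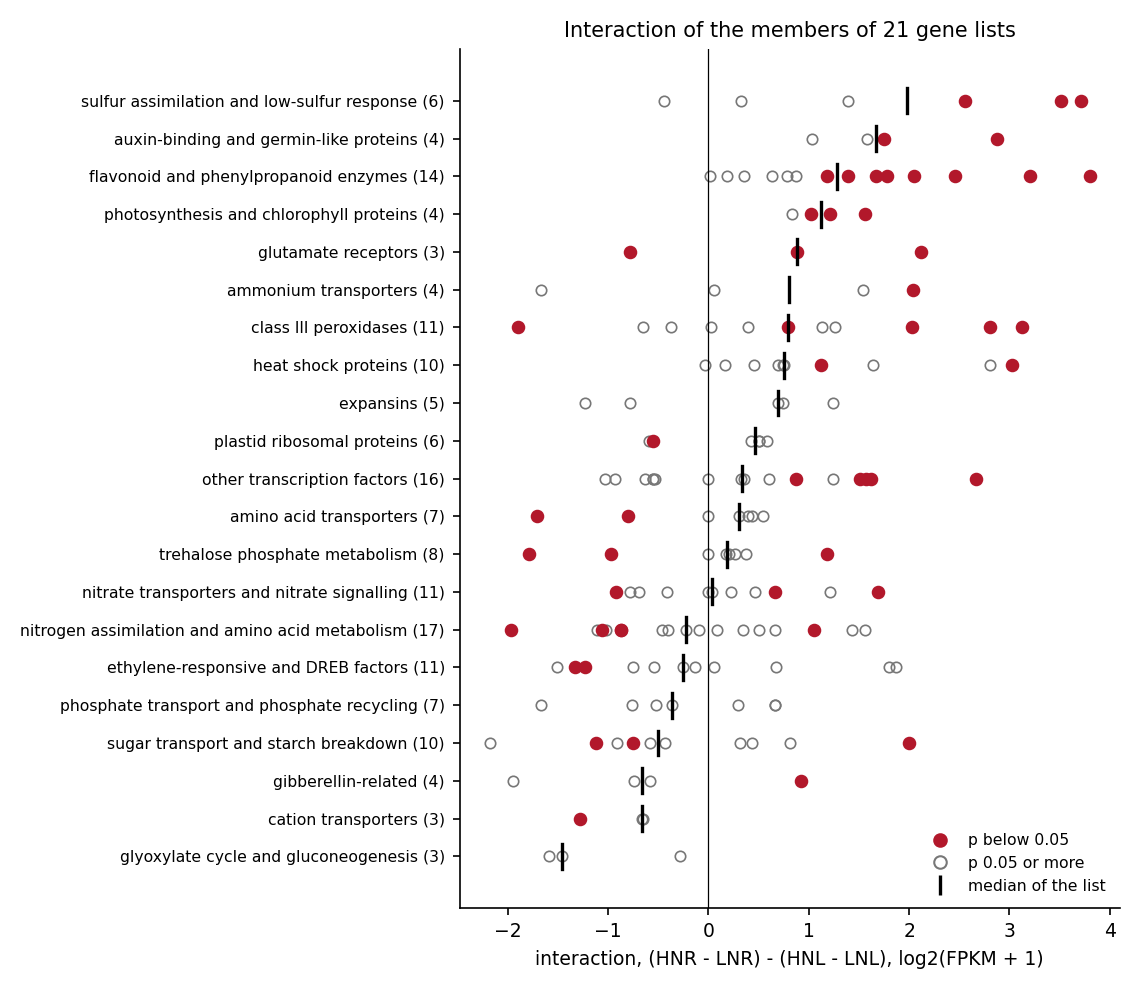
Interaction of each list member that passed the filter (horizontal axis, log2(FPKM + 1) scale), by gene list with the number of members in parentheses, ordered by median (black bar). Filled points are called genes and open points are not called. Sulfur genes have the highest median, 1.98, and glyoxylate cycle genes the lowest, -1.46.

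The remaining lists held few called genes. None of 5 expansins and none of 7 phosphate genes was called, with list medians of 0.69 and -0.36. The cation transporter HKT6 (Spo22724), of a family that moves sodium and potassium, had 2.04, 0.820 and 1.89 FPKM in HNR and 5.35, 3.89 and 4.83 FPKM in LNR, against 1.25, 1.66 and 1.83 FPKM in HNL and an average of 1.42 ± 0.636 FPKM in LNL (SD, n = 3). It fell under high N in root and its leaf groups overlapped (interaction -1.28 ± 0.35). Of 4 gibberellin-related genes 1 was called (Spo18312, 0.92 ± 0.34), and of 6 plastid ribosomal protein genes 1 (Spo07882, -0.55 ± 0.23). Both lost the call in some fits without 1 library, Spo18312 without HNR1, HNR2, HNL2 or LNL2, and Spo07882 without HNR1, HNR3, LNR2, LNR3, HNL1, HNL2, LNL1 or LNL2.

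Among all called genes with a protein name, the most positive interactions outside these lists began with the antiviral protein MAP. The antiviral protein MAP (Spo21766), a ribosome-inactivating protein first described in Mirabilis, had 200, 73.5 and 33.6 FPKM in HNR, 5.96, 6.74 and 1.28 FPKM in LNR, 13.9, 7.94 and 8.07 FPKM in HNL and 13.5, 8.89 and 4.13 FPKM in LNL. Under high N it rose in root and its leaf groups overlapped (interaction 3.77 ± 0.90). A leucine-rich repeat receptor (Spo09103) had 1.71, 2.51 and 0.958 FPKM in HNR and 0.585, 0.261 and 0.0919 FPKM in LNR, against 3.53, 9.56 and 11.2 FPKM in HNL and 77.7, 37.7 and 19.4 FPKM in LNL (interaction 3.27 ± 0.67). This receptor passed the root filter only through HNR, and the fits without HNR1 or HNR2 gave it no value. Both the ethylene-forming ACC oxidase 3 (Spo02830) and a beta-1,3-glucanase (Spo11906), an enzyme of the pathogenesis-related kind, differed in leaf and overlapped in root. ACC oxidase (Spo02830) had 108, 123 and 145 FPKM in HNR, 114, 89.3 and 53.8 FPKM in LNR, 9.61, 10.5 and 14.9 FPKM in HNL and 260, 58.1 and 22 FPKM in LNL. LNL1 was far above the other LNL libraries, and the interaction was 3.1 ± 0.93. The glucanase (Spo11906) had 6.03, 4.33 and 8.43 FPKM in HNL against 80.4, 84.7 and 17 FPKM in LNL, with 2.82 FPKM or less in every root library (interaction 3.05 ± 0.78).

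The most negative interaction among called genes with a protein name was that of the beta-D-xylosidase Spo17628, which trims xylan. It had 2.15, 2.33 and 3.45 FPKM in HNR, 2.67, 6.58 and 4.43 FPKM in LNR, 51.7, 28.5 and 13.3 FPKM in HNL and 4.4, 6.35 and 4.98 FPKM in LNL. High N raised it in leaf and its root groups overlapped (interaction -2.75 ± 0.57). The xyloglucan endotransglucosylase/hydrolase Spo12227, which cuts and joins xyloglucan chains, had 26.7, 28.8 and 34.2 FPKM in HNR, 44.6, 36.2 and 66.9 FPKM in LNR, 48.5, 30.1 and 26.2 FPKM in HNL and 13.7, 9.61 and 15.1 FPKM in LNL. It fell under high N in root and rose in leaf, with no overlap in either (interaction -2.01 ± 0.38). JINGUBANG (Spo05842), known in Arabidopsis from pollen germination, had 29.2, 21.9 and 39.8 FPKM in HNR, 100, 100 and 78 FPKM in LNR, 16.3, 10.9 and 12.8 FPKM in HNL and 7.07, 11.2 and 8.98 FPKM in LNL. It fell under high N in root, and in leaf it rose just past the threshold with groups that overlapped. Its interaction of -2.13 ± 0.33 had the smallest adjusted p of the negative ones, 0.0966 in limma.

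**Figure D5:**
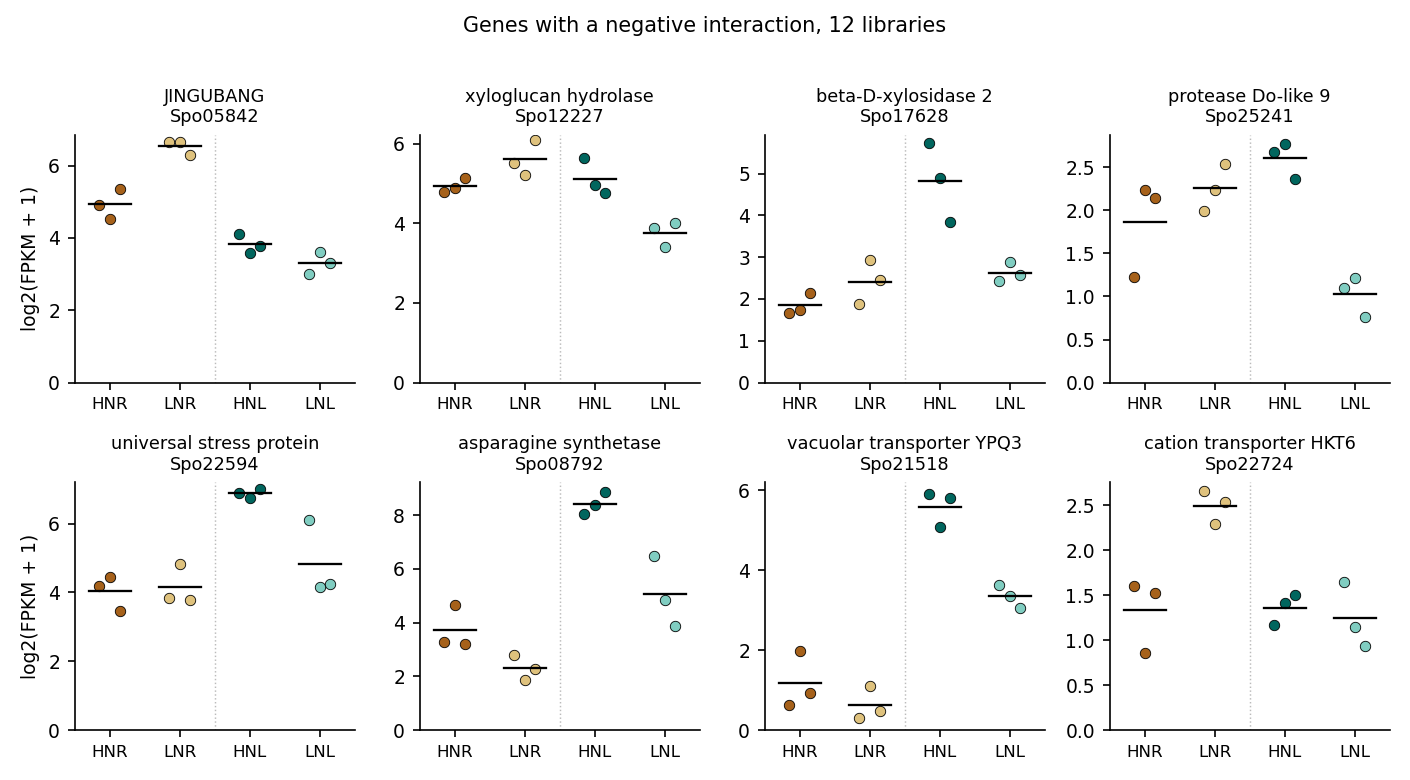
Level of 8 genes with a negative interaction in the 12 libraries (vertical axes, log2(FPKM + 1), each with its own range from 0), with root at high and low N (HNR, LNR) and leaf at high and low N (HNL, LNL). Points are libraries and lines are group means. JINGUBANG was lower in every HNR library than in every LNR library, while its leaf groups overlap.

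A universal stress protein gene (Spo22594) had 116, 107 and 129 FPKM in HNL against 67.3, 16.7 and 18.1 FPKM in LNL, and overlapped in root at 17.3, 20.8 and 10.1 FPKM in HNR and 13.4, 27.3 and 12.7 FPKM in LNR (interaction -2.16 ± 0.67). The protease Do-like 9 (Spo25241) and the NDR1/HIN1-like protein 1 (Spo01088) likewise rose under high N in leaf with overlapping root groups, with interactions of -1.97 ± 0.39 and -1.99 ± 0.49. Arginine decarboxylase (Spo18452), an enzyme of polyamine synthesis, had 22.7, 8.29 and 6.75 FPKM in HNL and 4.09, 0.246 and 0 FPKM in LNL, and its interaction of -2.53 ± 1.01 lost its call without HNR1, HNR3, LNR2, HNL1, LNL2 or LNL3. The universal stress protein gene Spo22595 (-2.08 ± 0.80) lost its call without LNR1, LNR3, HNL1, HNL2, LNL2 or LNL3. The BURP domain protein 3 gene (Spo05913, -2.63 ± 0.93) fell under high N in root. In leaf it had 5.77, 0.339 and 0.453 FPKM in HNL and 0.252, 0.457 and 0.536 FPKM in LNL. It passed the leaf filter only through HNL1, so the fit without HNL1 gave it no value. It was called in the 11 other fits without 1 library, which all kept HNL1.

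Among called genes that the study's tables give no protein name, the 3 most positive interactions were those of Spo17292 (3.33 ± 1.35), Spo17223 (2.75) and Spo04380 (2.48 ± 1.13), and the 3 most negative those of Spo02236 (-2.75 ± 0.85), Spo00289 (-2.68 ± 0.86) and Spo05333 (-2.35 ± 0.60). Spo05333 rose under high N in leaf (2.5) and its root groups overlapped. Spo17292 lost its call without LNR1, LNR2, LNL2 or LNL3, and Spo04380 without HNR1, HNR2, HNR3, LNR1, LNR3, HNL1, HNL2 or HNL3. Spo17292 passed the root filter only through HNR2, and the fit without HNR2 gave it no value. Spo17223 passed the leaf filter only through LNL1 (10.6 FPKM), so the fit without LNL1 gave it no value. It was called in the 11 other fits without 1 library, which all kept LNL1.

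Opposite N responses that each passed the test within their organ were seen in the 44 called genes given above, 30 with a positive and 14 with a negative interaction. Chalcone isomerase, APR1, SWEET7, AMT1 member 3, WRKY70 and JINGUBANG were among them. The 3 genes that follow were chosen from the 44 after their values were seen. Strigolactone esterase D14 (Spo02140), the receptor of the branching hormone strigolactone, had 2.63, 2.42 and 4.07 FPKM in HNR, 8.87, 5.52 and 6.26 FPKM in LNR, 57.1, 44.3 and 46.5 FPKM in HNL and 21.4, 35.9 and 34 FPKM in LNL. It fell under high N in root and rose in leaf (interaction -1.67 ± 0.34). The cytokinin-releasing enzyme LOG5 (Spo11775) ran the other way, with 12.2, 9.12 and 6.63 FPKM in HNR, 4.85, 2.41 and 4.02 FPKM in LNR, 2.81, 9.36 and 6.6 FPKM in HNL and 22.3, 11.9 and 10.5 FPKM in LNL (interaction 2.29 ± 0.55). The transcription factor TCP4 (Spo20683), known in Arabidopsis for limiting leaf growth, had 1.82, 1.47 and 1.68 FPKM in HNR, 4.26, 5.19 and 4.69 FPKM in LNR, 29, 45.6 and 51.3 FPKM in HNL and 34.1, 28.9 and 25.7 FPKM in LNL (interaction -1.57 ± 0.28). Its leaf groups overlapped, although the leaf response passed the test.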

How the data were processed

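RNA of root and leaf was sequenced in 12 libraries, 3 in each of 4 groups. The authors deposited FPKM values per gene. By the study's methods, reads were aligned with TopHat 2.0.12 and Bowtie 2.2.3 and counted with HTSeq 0.6.1, while the submitters' processing notes list fastp, HISAT2 2.1.0, featureCounts and DESeq2, so the pipeline behind the values is not certain. FPKM divides by gene length and library total and does not correct for a few genes that take a large share of a library.

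Values were analysed as log2(FPKM + 1) after the filter of a mean of 1 FPKM in each organ. A 4-group linear model was fitted with limma 3.58.1 in R 4.3.3, with a variance trend, and p-values were adjusted by Benjamini-Hochberg over all 15344 genes. Errors after ± are standard errors. The test was tested on simulated data. Fragments worked back from the FPKM values for 23015 genes served for depth and for voom as an alternative, and 2480 genes were 0 in every library. The 25 alternatives changed the pseudocount, filter, scaling, variance model, replicate block or libraries; that without both HNR3 and LNL1 was chosen after seeing the data. SciPy 1.17.1 and pandas 2.3.3, run under Python 3.11.15, served for the tables, and matplotlib 3.10.9 for the plots.

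Genes were named by rule: the 10 most positive and 10 most negative called genes with a protein name in the study's tables, the 3 most extreme in each direction without one, the 2 largest called members of each list, and the N genes that the study's text names by identifier. Other list members and genes with opposite responses were added after their values were seen. The members and lists were chosen with earlier results of these data known. Gene identifiers were not matched to reference sequences (0 matched), so no genome positions are given. The libraries of a group came from separate plants by the study's description. The values of 1 called gene in the photosynthesis list are not reported here.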

Additional observations from a re-analysis of the deposited data

Results flagged for a closer look

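In 28 of the named genes the N treatments did not overlap in either organ, the responses ran in opposite directions, and the difference between them passed the test of the interaction in limma at an unadjusted p below 0.05. The same lack of overlap in opposite directions was seen in 92 of all 15344 genes (0.6%), 87 of them called. Genes with opposite responses were added to the named genes after their values were seen, so the count of 28 follows from that choice. None of the 28 passed after adjustment over all genes. Those already described were chalcone isomerase Spo18570 (3.80), APR1 Spo13793 (3.71), RESPONSE TO LOW SULFUR 4 Spo22402 (3.51), the leucine-rich repeat receptor Spo09103 (3.27), probable chalcone isomerase 3 Spo26569 (3.20), SULFUR DEFICIENCY-INDUCED 1 Spo04503 (2.56), 4-coumarate-CoA ligase 2 Spo10338 (2.46), LOG5 Spo11775 (2.29), glutamate receptor 2.7 Spo01837 (2.12), AMT1 member 3 Spo21031 (2.04), SWEET7 Spo11590 (2.00), UNE10 Spo08635 (1.57), protochlorophyllide reductase Spo19511 (1.56), trehalose-phosphate phosphatase G Spo11422 (-0.97), D14 Spo02140 (-1.67) and the xyloglucan enzyme Spo12227 (-2.01).

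The others had positive interactions in annexin D5 Spo05489 (2.34), vacuolar iron transporter homolog 3 Spo19572 (1.95), cytochrome P450 71A1 Spo10055 (1.85), ENHANCED PSEUDOMONAS SUSCEPTIBILTY 1 Spo23268 (1.80), pectinesterase 51 Spo24631 (1.71), pleiotropic drug resistance protein 1 Spo00619 (1.59), the RING-H2 protein ATL21B Spo21363 (1.48), HYPER-SENSITIVITY-RELATED 4 Spo05505 (1.33) and aspartic proteinase Asp1 Spo26138 (1.09). Negative ones were seen in phosphatidylinositol transfer protein 1 Spo06012 (-1.54), COBRA-like protein 7 Spo13181 (-1.46) and EXORDIUM Spo23843 (-1.19). Of all genes flagged here, Spo09103, Spo01837 and Spo08635 averaged under 1 FPKM in LNR. Spo19572, Spo10055, Spo23268 and Spo05505 averaged under 1 FPKM in HNL.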

How the results depend on the processing

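Counts of genes at p below 0.05 (790) were 1591 with no filter on low values (23015 genes tested), 512 with a filter of 5 FPKM (10140 tested), 1770 with array weights and 583 to 1211 without each library in turn. Genes at adjusted p below 0.05 (0) numbered 12 with no filter, 1 with the filter of 5 FPKM, 1 after quantile normalization, 28 with array weights, 0 to 8 without each library and 16 without both HNR3 and LNL1. The share of called genes with the larger value in root (52.4%) was 44.5% with the filter of 5 FPKM, 48.9% with median-of-ratios scaling within each tissue, 37.8% with array weights, 39.8% to 67.0% without each library and 45.9% without both HNR3 and LNL1. The correlation of root and leaf responses (0.431) was 0.326 with no filter, 0.479 with the filter of 5 FPKM, 0.365 with array weights and 0.334 to 0.464 without each library. Genes whose 9 root and 9 leaf differences lay apart (352) numbered 936 with no filter, 229 with the filter of 5 FPKM, 479 to 950 without each library and 1236 without both HNR3 and LNL1, where fewer differences have to lie apart. Apart from the filters, which change the genes tested, and the left-out libraries in this last count, the cause was not tested.

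With a replicate block, 920 genes had p below 0.05 and 0 an adjusted p; a replicate block within treatment gave 1030 and 0, and a replicate block within tissue 1003 and 1. Same-numbered root and leaf libraries had deviations that correlated by 0.162, 0.437 and 0.093 at high N. At low N these were 0.325, 0.118 and 0.354. Differently numbered ones had -0.347 to 0.236 at high N and -0.378 to 0.112 at low N, most of them negative. HNL3 correlated best with HNR1 (0.236). Whether same-numbered root and leaf libraries came from 1 plant is not stated. The numbers were not taken to pair the samples, and the main fit treated all libraries as independent. The replicate block within treatment is the fit for such a pairing. Of the named genes, Spo26784, Spo02549, Spo25907 and Spo13022 were not called with the replicate block, Spo26784, Spo18312 and Spo02549 within treatment, and Spo08792, Spo04380, Spo26784, Spo25087, Spo07882, Spo23245, Spo25907 and Spo08889 within tissue, while Spo00216, Spo04382, Spo25895 and Spo24454 were called with each of the 3 blocks.

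Of 2138 values of the 88 called named genes under the alternatives, all 2138 had the same sign and 1900 had p below 0.05. These genes were called on the same libraries, which the alternatives largely share, so a kept sign is not independent evidence. A gene under the filter of a fit has no value there. In fits without 1 library this befell Spo01837, Spo05505, Spo05913, Spo09103, Spo13022, Spo17223, Spo17292, Spo19572, Spo21370, Spo21518, Spo21846 and Spo23268. With a pseudocount of 0.1 the calls of Spo08792, Spo22718, Spo21518, Spo26784, Spo25907, Spo08889 and Spo13022 were lost, and with voom those of Spo17157, Spo08792, Spo17292, Spo04380, Spo21518, Spo26784, Spo21370, Spo25907, Spo00338, Spo08889, Spo13022 and Spo28204. The sign turned in 4 genes that were not called. Spo24676 (0.06) had -0.10 after quantile normalization, -0.81 without both HNR3 and LNL1 and -0.48 to 0.51 without each library. Spo01109 (0.04) had -0.00 with voom and -0.24 to 0.59 without each library. Spo20248 (0.23) had -0.25 with a pseudocount of 0.1, -0.20 with array weights, -0.37 with voom and -0.10 to 0.41 without each library. Spo13997 (0.09) had -0.01 with array weights and -0.49 to 0.64 without each library. With 3 libraries per group the median standard error was 0.31, and a gene with that error needs an interaction well above 0.31 to be called. After adjustment even the 3.80 ± 0.45 of chalcone isomerase (Spo18570) did not pass.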

Other observations

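Several list genes were expressed in 1 organ only and have no interaction value. The chalcone synthases, which make the substrate of chalcone isomerase, were root genes: Spo27151 averaged 505 FPKM in HNR, 89.2 FPKM in LNR, 0.257 FPKM in HNL and 0.149 FPKM in LNL, and Spo25740 averaged 265 FPKM in HNR, 47.2 FPKM in LNR, 0.0989 FPKM in HNL and 0.038 FPKM in LNL. Another chalcone synthase, Spo26611, was a leaf gene, with 0.236 FPKM in HNR, 0.353 FPKM in LNR, 13 FPKM in HNL and 31.7 FPKM in LNL. The high-affinity nitrate transporter 2.1 gene (Spo09968) averaged 34 FPKM in HNR and 216 FPKM in LNR, and 0 FPKM in HNL and 0.0118 FPKM in LNL. Its single root libraries ranged from 0.198 to 272 FPKM. The root markers, of which it is 1, summed to 8 to 146 FPKM in the HNR libraries and to 226 to 359 FPKM in the LNR libraries. The HNR libraries thus differed widely from each other.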
